A study of Mus musculus with 8 samples.

Results

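The genes of 8 MAF, BACH and NFE2 factors were followed through chromatin loops marked by acetylation of histone H3 at lysine 27 (H3K27ac), a mark of active promoters and enhancers. The genes are Maff, Mafg and Mafk, which encode the small MAF proteins, Maf, which encodes a large MAF protein, and Bach1, Bach2, Nfe2 and Nfe2l2, which encode partners of the small MAF proteins. They were chosen by name, as 8 of 21757 protein-coding genes of the GENCODE mouse annotation (GRCm39). A loop was assigned to a gene where one of its 2 bins of 5 kb held the canonical start site of that gene, and such a loop is called a promoter loop.

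HiChIP joins a proximity ligation of DNA ends, which records pairs of sites that lie close together in the nucleus, to a precipitation of chromatin with an antibody. The comparison asked how 2 isoforms of the transcription factor CEBPA, and a stimulus of innate immunity, relate to contacts between promoters and other active sites. The cells were HPC-7, a mouse line of haematopoietic stem and progenitor type with very little CEBPA of its own. Each of 4 groups had 2 libraries, and 1 list of loops from the pooled libraries of each group was analysed here.

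The group p30 UT was the HPC-7_p30 line, which carries the short CEBPA isoform, without treatment. The group p30 LPS was the same line after 2 h of lipopolysaccharide (LPS), used at 100 ng/mL. The groups p42 UT and p42 LPS were the HPC-7_p42 line, which carries the full-length isoform, without treatment and after the same LPS exposure. All 4 groups shared the HPC-7 background, retroviral expression of the transgene from a long terminal repeat promoter and, per the methods, sorting of transduced cells for a fluorescent marker. The methods describe isoforms fused to an ERT2 fragment, which holds a protein outside the nucleus until 4-hydroxytamoxifen is added, and also unfused forms. The labels do not say which form was used here, nor whether 4-hydroxytamoxifen was given. Per the methods, lines with a fused form received it ahead of an experiment. In this report, without treatment therefore means without LPS. No empty-vector group was analysed here, so every comparison is of one line or treatment with another.

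Small MAF proteins carry a basic leucine zipper but no activation domain of their own. As pairs with one another they repress, and as pairs with NFE2, NRF2 (the product of Nfe2l2), BACH1 or BACH2 they bind an extended site built around the core letters of an AP-1 site. NFE2 drives globin and platelet genes, NRF2 drives the response to oxidative stress, and BACH1 and BACH2 repress many of the same sites until haem removes them. Whether such a site is active thus depends on which partner is present, and the genes for the partners are themselves controlled by distant enhancers.

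Throughout, 4 values in a row belong to the untreated and the LPS-treated p30 cells and then to the untreated and the LPS-treated p42 cells. The lists held 80489, 94609, 158233 and 78591 loops in that order. The loop caller had modelled between 14503330 and 18999991 contacts per list. Since a longer list tends to give more loops to a gene, counts were also made in lists of equal length, each reduced to its 78591 loops of lowest q-value. Each group is 1 pooled list, so no spread between replicates could be computed and no test across genes was run. Of 10 markers of haematopoietic progenitors, such as Kit, Cd34 and Gata2, 10 had a promoter loop in all 4 lists. Of 11 markers of other cells, 7 had none in any list, and Adgre1, Pecam1 and Epor were among those with a loop in at least one.

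The sequences below were read from the GRCm39 genome at bins joined to the start sites and described below. Most hold letters that the encoded proteins are known to read, and the lines noted CEBP and NF-kB hold other letters. A bin printed here need not have differed between the lists. Those 35 kb upstream of Bach1 and 10 kb upstream of Mafk did not, by the measures used below and in the lists that held them. All are given on the forward strand. In the lines without a further note the capitals mark GCTGANTCA or its reverse complement, the extended MAF and partner element, which contains the AP-1 letters TGANTCA. In the line noted CEBP the capitals mark TTGCNNAA, and in the line noted NF-kB they mark GGGANTTTC, each on either strand.
Maff, 15 kb upstream, chr15:79217676-79217769: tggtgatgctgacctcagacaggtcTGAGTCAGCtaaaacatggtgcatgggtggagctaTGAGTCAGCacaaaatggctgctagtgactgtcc
Bach1, 90 kb upstream, first element, chr16:87405088-87405146: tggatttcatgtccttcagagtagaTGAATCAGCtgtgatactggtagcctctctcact
Bach1, 90 kb upstream, other element, chr16:87407129-87407187: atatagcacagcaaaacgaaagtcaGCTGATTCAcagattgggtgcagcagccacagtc
Bach1, 90 kb upstream, CEBP letters, chr16:87409268-87409341: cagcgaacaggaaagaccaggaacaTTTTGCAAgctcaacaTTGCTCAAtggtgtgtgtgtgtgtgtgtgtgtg
Bach1, 35 kb upstream, chr16:87462314-87462374: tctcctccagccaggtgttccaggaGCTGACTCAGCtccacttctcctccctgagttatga
Mafk, 10 kb upstream, chr5:139767909-139767967: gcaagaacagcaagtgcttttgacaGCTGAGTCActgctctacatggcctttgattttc
Nfe2, 10 kb upstream, chr15:103174470-103174528: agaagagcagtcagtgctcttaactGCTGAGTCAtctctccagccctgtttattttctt
Nfe2, 55 kb upstream, chr15:103219802-103219860: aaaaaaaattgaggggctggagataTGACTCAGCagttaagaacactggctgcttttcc
Nfe2l2, 80 kb upstream, chr2:75613250-75613308: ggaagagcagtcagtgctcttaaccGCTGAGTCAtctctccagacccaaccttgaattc
Nfe2, 55 kb upstream, NF-kB letters, chr15:103219194-103219252: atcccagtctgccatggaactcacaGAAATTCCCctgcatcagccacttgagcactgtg

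The 2 elements 15 kb upstream of Maff stand in tandem within 94 bases of intergenic sequence, and the one 35 kb upstream of Bach1 is a palindrome that matches on both strands, in an intron of Gm59828. The 2 elements 90 kb upstream of Bach1 lie in exons of the non-coding gene Gm41485 and the CEBP letters in its intron. Of the other elements, the one near Mafk and both near Nfe2 are intergenic, and the one 80 kb upstream of Nfe2l2 is in an intron of Gm13657. The NF-kB letters 55 kb upstream of Nfe2 are intergenic.

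The 3 elements 10 and 55 kb upstream of Nfe2 and 80 kb upstream of Nfe2l2 share their surroundings as well. With the element of the first as the reference and all turned to the same strand, 38 of 50 flanking bases at the second and 36 of 50 at the third were identical to it. Of 35 matches in peak bins joined to the 8 genes, 3 had at least 35 identical flanking bases, the reference included, and of 14361 matches in all peak bins 365 did, which is 2.54%. Such flanks are typical of the short interspersed repeats of the mouse genome, and no repeat annotation was used here.

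These letters were a common feature of peak bins in general. GCTGANTCA was found in 27 of 113 peak bins joined to the 8 genes (23.9%) and in 12282 of 64985 peak bins of any loop (18.9%). The share was 4 of 8 bins for Mafk, 7 of 23 for Nfe2, 6 of 21 for Bach1, 4 of 19 for Nfe2l2, 4 of 28 for Mafg and 2 of 14 for Maff. TGANTCA was in 73.5% of the joined bins against 77.4% of all peak bins, TTGCNNAA in 80.5% against 85.8%, and GGGANTTTC in 13.3% against 15.3%. In the 250 bases before the start sites, only Maf held one of the 4 motifs, a match to TTGCNNAA. Among 21757 promoters of that length 9.34% held TTGCNNAA, 6.18% TGANTCA, 1.08% GGGANTTTC and 0.933% GCTGANTCA.

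Of the 8 genes, 6 had promoter loops. In the lists as deposited they had 67, 81, 101 and 71, and in lists of equal length 66, 76, 69 and 71. These were 122 distinct loops of 214313 in all 4 lists together. Of the 122, 45 were in all 4 lists (36.9%, against 14.5% of all loops), and 33 were in a single list (27.05%, against 50.5%). The comparison set holds loops of every kind, also those away from start sites, and was not matched for coverage. These shares thus do not show that the loops of the 6 genes recur more than other promoter loops. Loops present in both p42 lists and in neither p30 list numbered 11 (9.02%, against 5.53%), those in both p30 lists alone 2 (1.64%, against 1.58%), those in both LPS lists alone 2 (1.64%, against 1.33%) and those in both UT lists alone 1 (0.820%, against 4.99%). Most partners were not promoters, since 22 of the 122 partner bins held the start site of another protein-coding gene, 11 of them at Mafg.

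Nfe2 had 16, 16, 21 and 20 loops in the 4 lists. Mafg had 12, 16, 27 and 14, Bach1 13, 16, 21 and 18, and Nfe2l2 12, 17, 18 and 13. Maff had 7, 9, 9 and 6 and Mafk 7, 7, 5 and 0. The median gene with any loop had 3 in each list but p42 UT, where it had 5, and Nfe2 exceeded 95.1% to 99.1% of such genes.

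**Figure D1:**
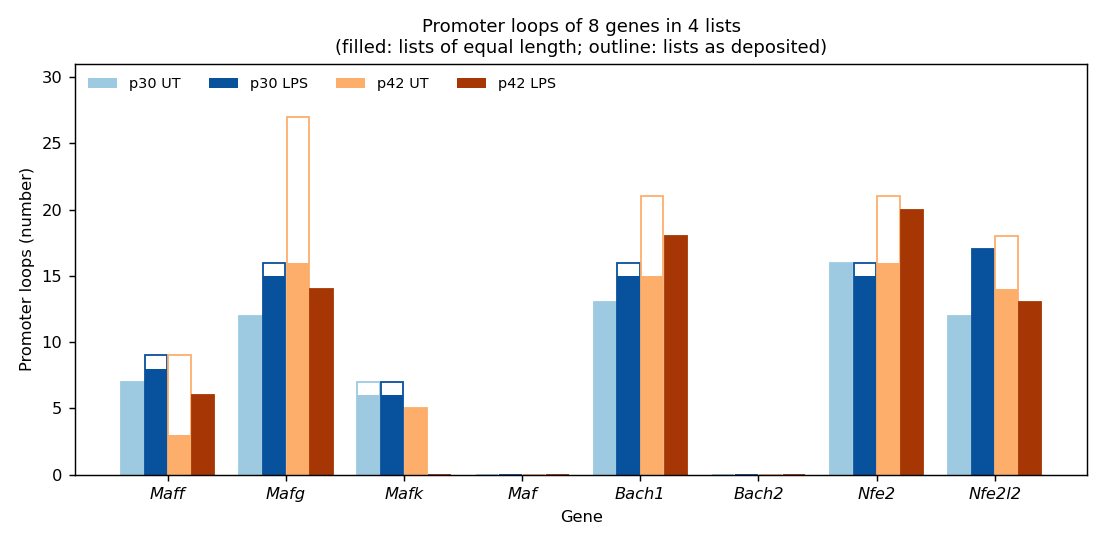
Promoter loops (number, y axis) of each of the 8 genes (x axis) in the 4 lists. Filled bars give lists of equal length and outlines the lists as deposited. Mafg fell from 27 to 16 loops in p42 UT once the lists had equal length, Mafk had 0 in p42 LPS, and Maf and Bach2 had 0 throughout.

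In untreated cells, no gene of the 6 had more loops with p42 than with p30 by the rule used for all genes, at least 1.5 times as many and at least 2 more in lists of equal length, and 1 had fewer. This was Maff, with 7 loops in p30 UT and 3 in p42 UT. By the same rule 17.4% of 8950 genes with a loop were higher and 12.6% lower. As deposited, Maff had 7 and 9 loops, so the order of the lists turned with their length. In LPS-treated cells, 0 of the 6 were higher and 1 lower with p42, namely Mafk with 6 and 0 loops, against 12.2% higher and 19.3% lower of 8834 genes.

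With LPS in p30 cells, none of the 6 was called in either direction, where 15.2% of 9018 genes were higher and 12.4% lower. With LPS in p42 cells, Maff was higher, with 3 loops untreated and 6 after LPS, and Mafk lower, with 5 and 0, against 9.17% and 17.6% of 8676 genes. As deposited, Maff had 9 and 6 loops here, so this order too turned with the length of the lists. A share of 1 in 6 is close to these backgrounds, so the counts of loops do not set the genes apart from the rest. Each comparison shares lists with others, so the calls are not independent of one another.

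The coverage of the start-site bin, as a multiple of the mean peak bin of the same list, moved less. Nfe2 had 4.18, 4.30, 5.93 and 4.86, Mafg 3.69, 4.51, 4.80 and 4.27, and Nfe2l2 3.18, 3.91, 4.06 and 3.47. Mafk had 2.89, 2.69 and 2.74 in the lists that held it, Bach1 2.21, 2.85, 2.48 and 2.64, and Maff 1.52, 2.14, 1.33 and 1.59. All were above the mean peak bin in each list that held them. No start-site bin reached a 1.5-fold difference in any comparison, 0 of 6 genes for p42 over p30 in UT cells and for LPS over UT in p30 cells, and 0 of 5 for the others. By that rule 3.7% of genes were higher and 1.19% lower with p42 in UT cells, 1.58% and 3.65% with p42 in LPS cells, 1.87% and 0.298% with LPS in p30 cells, and 0.647% and 1.09% with LPS in p42 cells. The nearest to the threshold were Nfe2, 1.42-fold higher with p42 than with p30 in UT cells, and Maff, 1.41-fold higher with LPS in p30 cells.

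The bins at the far end of the loops were compared by the same rule. With p42 over p30 in UT cells, 6 of 113 partner peak bins were at least 1.5-fold higher and 0 lower, and 5 of the 6 belonged to Bach1. Among all 41107 peak bins compared, 4.78% were higher and 3.43% lower. In LPS cells 6 of 104 were higher, all 6 at Bach1, and 3 lower, against 3.87% and 2.88% of 36445 bins. With LPS in p30 cells 6 of 110 were higher and 0 lower, against 2.28% and 0.865% of 37092 bins, and these lay at Maff, Nfe2, Bach1 and Nfe2l2. With LPS in p42 cells 1 of 105 was higher, at Nfe2l2, and 0 lower, against 1.58% and 1.16% of 40939 bins. Neighbouring bins share reads and enhancers, so bins are not independent of each other, and a bin is in this set because a loop to it was listed, which itself depends on coverage.

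**Figure D2:**
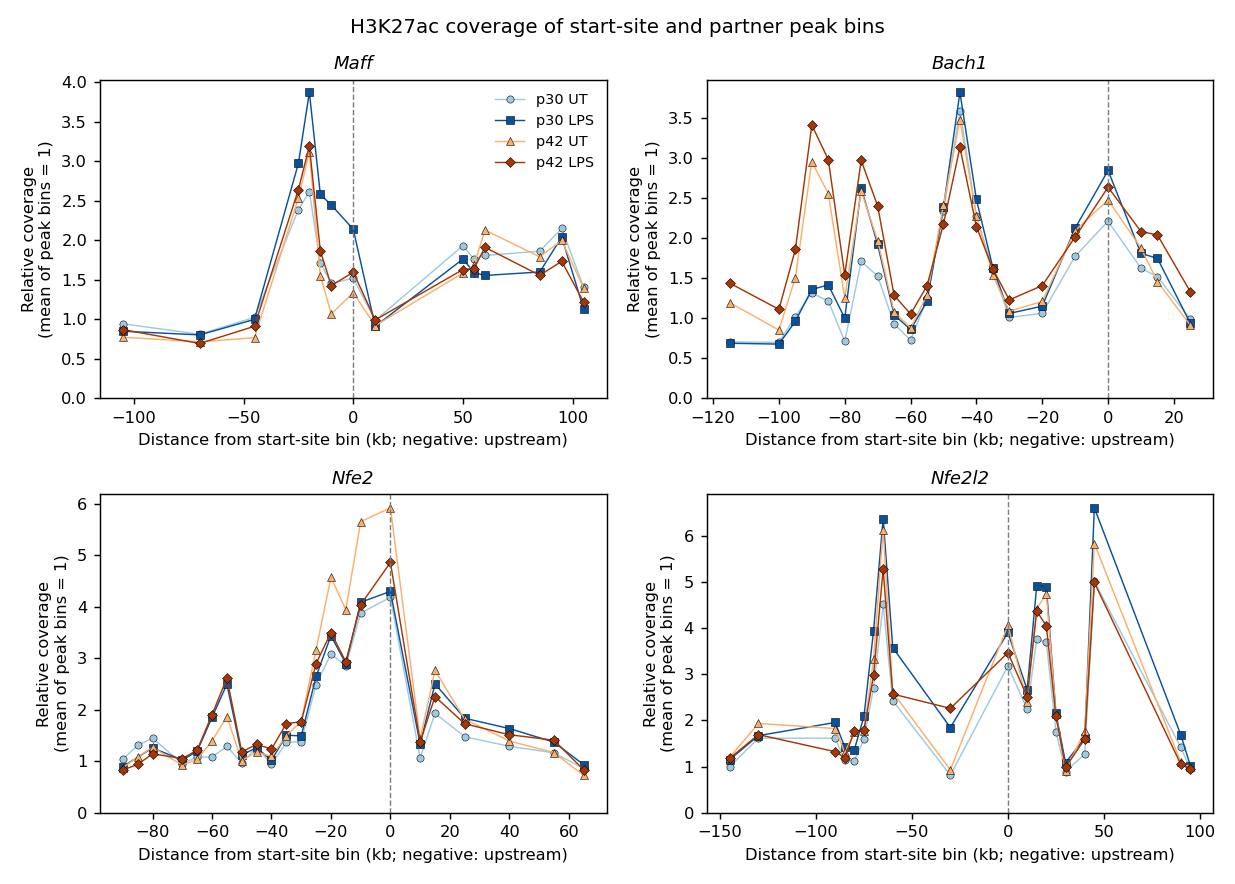
Relative H3K27ac coverage (y axis, mean of peak bins of the list set to 1) of the start-site bin (dashed line) and of partner peak bins, against distance from the start-site bin (x axis, kb, negative upstream), for 4 genes and 4 lists. The upstream bins of Bach1 from 115 to 80 kb are higher in both p42 lists, and the bin 30 kb upstream of Nfe2l2 is higher in both LPS lists.

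Contacts could be compared most directly at the 45 loops found in all 4 lists. In UT cells, 3368 of the contacts came from p42 and 2040 from p30, so the p42 share was 62.3% (exact 95% interval 61.0 to 63.6), where the counts that the caller expected from distance and coverage gave 55.4%. Nfe2 alone gave 1647 of these contacts in p42 and 860 in p30, so it weighs heavily in this difference. Over all 31032 loops in all 4 lists, the p42 share was 57.5% against 53.3% expected, so part of this difference was general to the p42 UT list. In LPS cells the p42 share was 51.4% (49.9 to 52.8) against 51.6%, and over all such loops 48.6% against 50.8%. The LPS share was 52.5% (51.0 to 54.0) against 48.4% in p30 cells, and 41.4% (40.1 to 42.7) against 44.6% in p42 cells. Over all such loops the LPS share was 49.7% against 46.5%, and 40.8% against 44.0%. These intervals cover counting error in these pooled libraries, not differences between cultures. In pooled cells, a contact in fewer cells and a weaker contact in every cell cannot be told apart.

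Gene by gene, shares were set beside the general shift, a median of 0.25 on the log2 scale over all 31032 loops for p42 over p30 in UT cells. The p42 share in UT cells lay above the expected share for each of the 5 genes with such loops, from 57.1% (52.1 to 62.1) against 49.7% for Maff to 65.7% (63.8 to 67.6) against 57.9% for Nfe2. The excess had an interval above the general shift for Nfe2, 0.36 to 0.60, and intervals that held it for Maff, Mafg, Bach1 and Nfe2l2. In LPS cells only Maff departed, with a p42 share of 39.7% (35.3 to 44.3) against 44.8%. With LPS in p30 cells, Maff, Nfe2 and Nfe2l2 lay above, and Mafg and Bach1 held the expected share within their intervals. With LPS in p42 cells, Mafg and Nfe2 lay below, and Maff, Bach1 and Nfe2l2 held it within their intervals. Of these departures, that of Maff with LPS in p30 cells, 0.29 to 0.85, exceeded the general median of 0.16, and the others had intervals that held the general median of their comparison. Among single loops in both UT lists, the p42 share lay above the expected share for 10 of 59 and below for 0. In LPS cells it lay above for 1 of 53 and below for 2. The LPS share lay above for 8 of 58 and below for 0 in p30 cells, and above for 0 of 64 and below for 7 in p42 cells. Shares of single loops given below were not set beside the general shift, whose median for LPS over UT in p42 cells was -0.21.

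**Figure D3:**
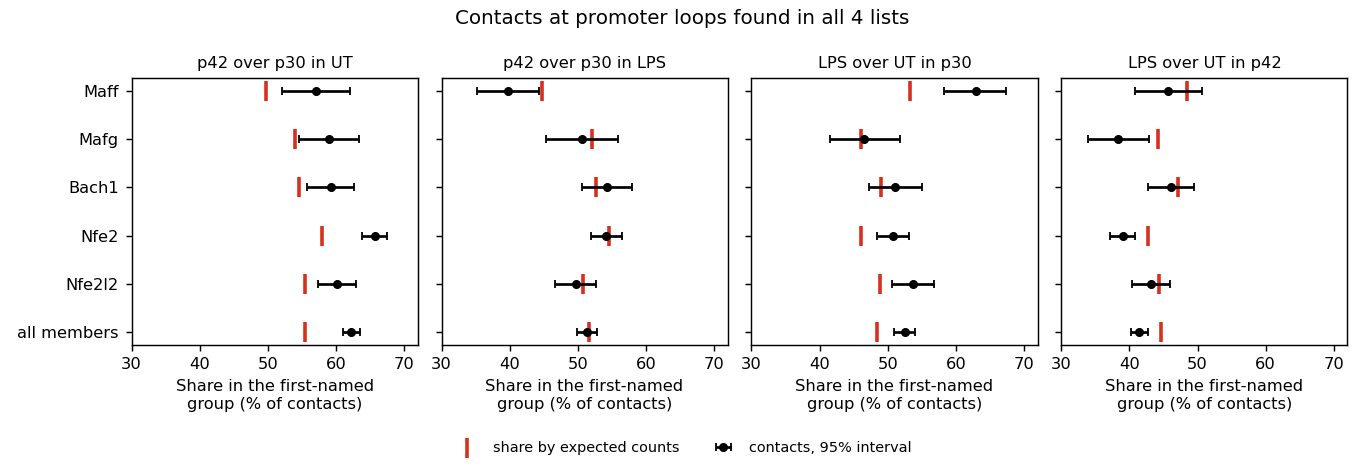
Share of contacts in the first-named group (x axis, % of contacts of both lists) at loops in all 4 lists, for 5 genes and for all of them together. Points are shares with exact 95% intervals and red marks the shares by expected counts, which the p42 share in UT cells exceeds for all 5 genes.

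A loop missing from a list need not be a lost contact. For pairs of peak bins the expected count of an unlisted pair could be worked out from the listed ones, and with it the number of contacts the pair would have needed to enter the list. Of 36 loops of the 6 genes listed in p42 UT and missing from p30 UT, 1 had a contact share with an interval above its expected share even when the missing pair was given 1 contact less than it needed. This held for 3 of 26 loops listed in p42 UT and missing from p42 LPS, for 2 of 20 listed in p30 LPS and missing from p42 LPS, and for 1 of 22 listed in p30 LPS and missing from p30 UT. In the other directions it held for 0 of 6, 0 of 14, 0 of 8 and 0 of 6. All of these calls were at Mafg.

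**Figure D4:**
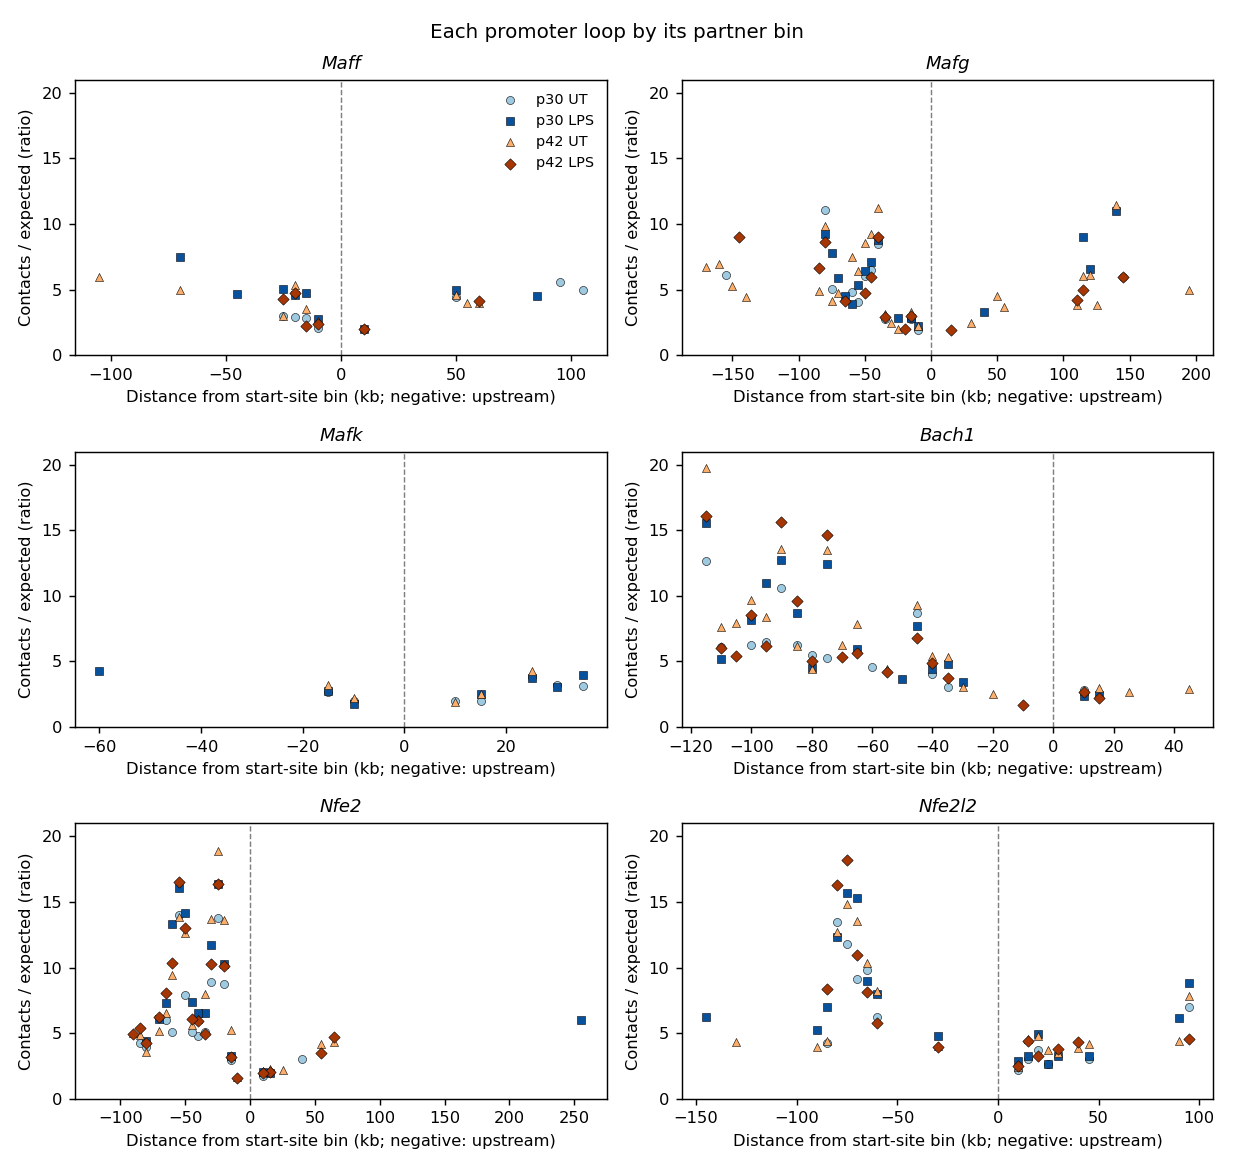
Contacts over expected contacts (y axis, ratio) of each promoter loop against the distance of its partner bin from the start-site bin (x axis, kb, negative upstream) for 6 genes, with the 4 lists as colours and symbols. Partner bins near the start site lie at low ratios, and the 8 highest bins are those of Bach1 at 115, 90 and 75 kb, Nfe2 at 55 and 25 kb and Nfe2l2 from 80 to 70 kb, all upstream.

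Maff, a small MAF gene known to be induced by stress and inflammatory signals, starts at position 79231720 of chromosome 15 on the forward strand. Gm62234 starts in the same bin, so the loops cannot be assigned to one of them. Its 14 distinct loops reached from 10 to 105 kb, and the 4 in all lists went to a stretch from 25 to 10 kb upstream, which includes the start site of Pla2g6, a phospholipase gene, at 20 kb. At 15 kb upstream, the bin with the tandem elements printed above, there were 45, 84, 55 and 33 contacts. The p30 LPS list stood highest and the p42 LPS list lowest. The LPS share was 65.1% (56.2 to 73.3) against 52.6% expected in p30 cells and 37.5% (27.4 to 48.5) against 48.7% in p42 cells, above the expected share in one line and below it in the other. The interval in p42 cells held the share of modelled contacts, 45.5%.

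The bin 10 kb upstream of Maff, which is intergenic, had 64, 105, 75 and 66 contacts. The coverage of that bin was 1.45, 2.44, 1.07 and 1.42 times the mean peak bin, 1.68-fold higher with LPS in p30 cells, and at 15 kb it was 1.71, 2.58, 1.55 and 1.86, 1.51-fold higher. At 20 kb, the start of Pla2g6, contacts were 35, 57, 69 and 56. Over the 4 shared loops the LPS share in p30 cells was 62.9% (58.3 to 67.4) against 53.3%. On coverage too the p30 LPS list was thus the one that stood apart, both at the start site and in the bins upstream of it.

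One further Maff loop, 10 kb downstream over the 3′ part of the gene and its neighbour Tmem184b, was listed after LPS alone, with 51 contacts in p30 and 47 in p42 cells. The pair would have needed 48 contacts in either UT list. A listed count and a missing one may thus have differed by a few contacts. The coverage of that bin was 0.983, 0.908, 0.918 and 0.989 times the mean peak bin.

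Mafg, the small MAF gene expressed in most tissues, starts at position 120524374 of chromosome 11 on the reverse strand, in a region dense with genes, and 2 non-coding genes, Gm17586 and Gm72612, start in the same bin, so its loops cannot be assigned to one of them. It had 34 distinct loops, the most of the 6 genes, of which 5 were in all 4 lists and 15 in a single one. All 5 shared loops ran upstream, 4 of them to bins over Aspscr1, which encodes a tether of glucose transporter vesicles. At its start site, 40 kb away, there were 50, 45, 78 and 50 contacts, and at 45 kb 39, 36, 60 and 33. The p42 UT list was the highest at both and the other 3 were close to each other. At 80 kb, which holds the start sites of Cenpx and Lrrc45, they were 32, 23, 31 and 24, or 11.1, 9.25, 9.87 and 8.65 times the expected count.

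The Mafg loop to Slc25a10, a mitochondrial carrier gene 140 kb downstream, was listed in p30 LPS with 21 contacts and in p42 UT with 25, 10.99 and 11.4 times the expected count. It was missing from p30 UT and p42 LPS, where 10 contacts would have listed it. Even with 9 contacts in p30 UT, the p42 share in UT cells was 73.5% (55.6 to 87.1) against 51.3% expected. The next bin, 145 kb downstream, was listed in p30 UT and p42 LPS alone, with 12 contacts in each, 5.94 and 5.97 times the expected count. Those 2 lists thus held a loop to the same stretch, 1 bin further away. Pycr1, a gene of proline synthesis 10 kb upstream, was joined by 84, 91 and 122 contacts in p30 UT, p30 LPS and p42 UT and not listed in p42 LPS, where 71 would have sufficed. The Slc25a10 bin had 1.78, 1.68, 1.60 and 1.52 times the mean peak coverage, and no partner peak bin of Mafg reached a 1.5-fold difference in any of the 4 comparisons.

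Mafk, a small MAF gene and a partner of NFE2 in blood cells, starts at position 139777264 of chromosome 5 on the forward strand. It had 8 distinct loops, none in all 4 lists and 4 in 3 of them. Ints1, which encodes a subunit of the Integrator complex and starts 15 kb upstream, was joined by 75, 51 and 89 contacts in p30 UT, p30 LPS and p42 UT. The intergenic bin 10 kb upstream, whose element is printed above, was joined by 103, 71 and 117, and a bin over Tmem184a 25 kb downstream by 30, 21 and 31. Psmg3, a gene of proteasome assembly 35 kb downstream, was joined in the p30 lists alone, by 18 and 17, where 17 contacts would have listed it in p42 UT. The highest ratio of contacts to expected ones at Mafk was 4.26, in p30 LPS, below the highest of each other gene with loops.

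In p42 LPS the start-site bin of Mafk was in no loop, so neither its coverage nor the contacts it would have needed are known there. Within 100 kb of the start site the lists held 31, 28, 45 and 23 loops, so the region was not empty in p42 LPS. At the bins beside the start site there were 4, 3, 3 and 1 loops. Of the 8 partner bins, those 60 kb upstream and 30 kb downstream were in loops to other bins in p42 LPS, and their coverage was 3.26 and 1.14 there against 2.65 and 1.29 in p30 LPS.

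Bach1, the repressor that haem releases from DNA, starts at position 87495782 of chromosome 16 on the forward strand. Its 24 loops ran mostly upstream, 17 of 21 in p42 UT for example, and 12 were in all 4 lists. They covered every bin from 115 to 30 kb upstream, toward and into Map3k7cl, and further bins at 20 and 10 kb, besides 4 bins from 10 to 45 kb downstream, and no partner bin held the start site of a protein-coding gene. The bin 115 kb upstream, within Map3k7cl, had 23, 27, 42 and 33 contacts, 12.7, 15.6, 19.7 and 16.1 times the expected count. At 90 kb they were 25, 28, 41 and 45. Both p42 lists were above both p30 lists at these bins, but the intervals of the p42 shares held the expected shares in UT and in LPS cells. At 95 kb contacts were 14, 22, 21 and 15 and at 85 kb 15, 20, 19 and 28, so the p42 lists did not both stand above the p30 lists there.

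The coverage of several of the distant bins was higher with p42 than with p30. At 90 kb upstream, the bin with 2 extended elements and 5 matches to the CEBP letters, the relative coverage was 1.32 and 1.36 in the p30 lists and 2.96 and 3.42 in the p42 lists, each before and after LPS. This was 2.25-fold higher with p42 in UT cells and 2.51-fold in LPS cells. At 85 kb it was 1.21 and 1.42 against 2.56 and 2.99, 2.11-fold in both. At 115 kb it was 0.703 and 0.686 against 1.196 and 1.44, 1.70-fold and 2.10-fold, and at 80 kb 0.709 and 1.00 against 1.25 and 1.54. In each of these bins both p42 values exceeded both p30 values. For comparison with the bin at 90 kb, the mean peak bin held 2.08 matches to the CEBP letters and 0.22 extended elements. Any link between these letters and the coverage was not tested.

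None of its 7 partner bins from 50 to 10 kb upstream was called between p42 and p30. At 45 kb upstream, the values were 3.59, 3.83, 3.48 and 3.14, with 49, 37, 56 and 35 contacts. At 35 kb, the bin of the palindrome, they were 1.60, 1.63, 1.54 and 1.61, with 17, 23, 32 and 20 contacts. Over the 12 shared loops, the p42 share in UT cells was 59.2% (55.7 to 62.7) against 54.5% expected, and in LPS cells 54.3% (50.6 to 57.9) against 52.7%.

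The bin 75 kb upstream of Bach1 behaved differently, since p30 UT alone was low. It had 15 contacts in p30 UT and 35, 46 and 47 in the other lists, and its coverage was 1.71, 2.63, 2.59 and 2.97. The p42 share of its contacts in UT cells was 75.4% (62.7 to 85.5) against 54.6% expected, and the LPS share in p30 cells 70.0% (55.4 to 82.1) against 49.9%. Another 3 bins, at 105, 70 and 55 kb, were listed in the p42 lists alone. At 70 kb there were 21 and 17 contacts before and after LPS, and 12 would have listed the pair in either p30 list.

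Nfe2, the haematopoietic partner of the small MAF proteins, starts at position 103163866 of chromosome 15 on the reverse strand. Of its 23 loops 16 ran upstream, to bins from 10 to 90 kb away, and 7 downstream. The 14 in all 4 lists went to every bin from 15 to 65 kb upstream, to 80 kb upstream, and to 10 and 15 kb downstream. The most contacts were with Copz1, which encodes a coat protein of transport vesicles, 173, 161, 383 and 200 at its start site 20 kb away, and 180, 166, 328 and 217 at 25 kb. The p42 UT list was by far the highest at both bins. The p42 share in UT cells was 68.9% (64.9 to 72.7) against 58.8% expected at 20 kb, and the LPS share in p42 cells 34.3% (30.5 to 38.3) against 41.3%.

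The p42 UT list was also the highest at 15 kb upstream of Nfe2, with 90, 80, 226 and 95 contacts, and at 30 kb, with 72, 76, 147 and 87. The coverage from 10 to 20 kb was highest in p42 UT as well, whereas at 55 and 60 kb it was highest in p42 LPS. The values were 3.88, 4.09, 5.66 and 4.04 at 10 kb, 2.85, 2.90, 3.95 and 2.93 at 15 kb and 3.09, 3.44, 4.58 and 3.50 at 20 kb, 1.46-fold, 1.38-fold and 1.48-fold higher in p42 UT than in p30 UT and so short of the 1.5-fold rule. The intergenic bin 10 kb upstream was listed in the p42 lists alone, with 178 and 117 contacts, where p30 UT and p30 LPS would have needed 108 and 94. The ratio to expected contacts in p42 was 1.68 and 1.60.

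Further upstream, Nfe2 was joined to Gpr84, a receptor gene of myeloid cells that responds to LPS, at 55 kb, and to Zfp385a at 60 kb. Gpr84 had 57, 63, 73 and 80 contacts, 14.05, 16.1, 13.9 and 16.5 times the expected count. The bin at 60 kb had 18, 45, 42 and 42, so that p30 UT alone was low, and the LPS share in p30 cells was 71.4% (58.7 to 82.1) against 48.7%. The coverage was 1.29, 2.50, 1.87 and 2.62 at 55 kb and 1.08, 1.86, 1.40 and 1.91 at 60 kb. This was 1.94-fold and 1.71-fold higher with LPS in p30 cells, and 1.40-fold and 1.37-fold in p42 cells, where it fell short of the rule. The bin at 55 kb held 3 matches to the NF-kB letters, 2 of them in an exon of Gpr84. The mean peak bin held 0.17 such matches, and any link between them and the coverage was not tested.

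Downstream of Nfe2, the bin 15 kb away with the start sites of Hnrnpa1 and Cbx5, which encode an RNA-binding protein and a heterochromatin protein, had 52, 45, 84 and 55 contacts, 2.00, 1.95, 2.27 and 2.08 times the expected count. A single loop reached 255 kb, to a bin over Hoxc5 and Hoxc6, with 9 contacts in p30 LPS, where 9 would have listed the pair in each other list. It was the longest promoter loop of the 6 genes.

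Nfe2l2, the gene for NRF2, starts at position 75534985 of chromosome 2 on the reverse strand, and the non-coding gene E030042O20Rik starts in the same bin. Of its 19 loops 10 were in all 4 lists. These 10 went to bins within the gene, from 10 to 20 kb downstream of the start site, to sequence without protein-coding genes from 60 to 85 kb upstream, and to a bin 95 kb downstream with 16, 19, 20 and 10 contacts. The other loops included bins of Hnrnpa3, 40 and 45 kb downstream, and of Agps, 130 and 145 kb upstream. Inside the gene, contacts were 114, 146, 157 and 128 at 10 kb, 94, 96, 175 and 134 at 15 kb and 70, 86, 116 and 59 at 20 kb. The p42 share in UT cells was 65.1% (59.0 to 70.7) against 55.7% expected at 15 kb. In LPS cells it was 58.3% (51.6 to 64.7) against 51.2% at 15 kb, but 40.7% (32.6 to 49.2) against 51.3% at 20 kb.

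The upstream bins of Nfe2l2 had fewer contacts but higher ratios. At 75 kb they were 36, 45, 52 and 55, or 11.8, 15.7, 14.8 and 18.2 times the expected count, and at 80 kb 36, 31, 42 and 47, or 13.5, 12.4, 12.7 and 16.3 times. At 70 kb they were 34, 53, 59 and 40. The coverage was highest at 65 kb, with 4.52, 6.38, 6.13 and 5.28 times the mean peak bin. At 80 kb it was 1.13, 1.37, 1.74 and 1.77, 1.55-fold higher with p42 in UT cells.

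The bin 30 kb upstream of Nfe2l2 followed LPS in both lines. Its relative coverage was 0.815 in p30 UT and 1.85 in p30 LPS, 2.27-fold higher, and 0.929 in p42 UT and 2.26 in p42 LPS, 2.44-fold higher. It was the only partner peak bin of the 6 genes called in the same direction with LPS in both lines. Its contacts with the start site did not follow in the same way, with 29 in p42 UT and 32 in either LPS list, and in p30 UT, where it was not listed, fewer than the 18 needed. The bin is intergenic with respect to protein-coding genes and held 3 matches to TGANTCA, 4 to TTGCNNAA and none to GGGANTTTC. The mean peak bin held 1.53, 2.08 and 0.17 of these, and any link between the letters and the coverage was not tested.

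Maf and Bach2 had no promoter loop in any list. Maf starts at position 116434579 of chromosome 8 and is known from T cells and macrophages, and Bach2 starts at position 32238714 of chromosome 4 and is known from B cells and other lymphocytes. Within 100 kb of either start site the 4 lists held 0 loops, so no coverage value exists for these bins. With all annotated start sites of Bach2, which lie in 5 bins, none was found either.

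Of 10 relatives and regulators of these factors, such as Keap1, which holds NRF2 back, and Cul3 and Rbx1, which mark it for degradation, 6 had promoter loops in all 4 lists and Nfe2l3 had none in any. With LPS in p30 cells 3 of 6 were higher and 0 lower, against 15.2% and 12.4% of all genes, Sqstm1 with 7 and 16 loops, Cul3 with 6 and 9 and Nfe2l1 with 0 and 2. Sqstm1 encodes a protein that draws KEAP1 into autophagy. The median difference was 2 loops over the 6 with a loop, against 0 over all genes. With p42 in LPS cells 0 were higher and 2 lower, against 12.2% and 19.3%, Rbx1 with 12 and 5 loops and Cul3 with 9 and 6, with a median difference of -1.5 loops against 0. With p42 in UT cells 1 was higher, Sqstm1 with 7 and 13, and 0 lower, against 17.4% and 12.6%. With LPS in p42 cells 0 were higher and 1 lower, Rbx1 with 10 and 5, against 9.17% and 17.6%. The start-site coverage of Sqstm1 was 3.59, 5.79, 4.16 and 4.34, so that p30 LPS stood apart. Start-site coverage was called higher for 1 of 6 relatives with LPS in p30 cells, Sqstm1, against 1.87% of all genes. With p42 in UT cells it was called higher for 1 of 6, Cul3 with 2.62 and 3.96, against 3.7%. No relative was called lower in any comparison.

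Of 24 known targets of NRF2 and BACH1, 12 had promoter loops in all 4 lists and 6 in none, among them Slc7a11, Srxn1 and Slc40a1. With LPS in p30 cells 4 of 16 with a loop were higher and 0 lower, against 15.2% and 12.4% of all genes, Txnrd1 with 3 and 9 loops, Taldo1 with 6 and 10, Blvrb with 5 and 8 and Gclm with 1 and 3. With LPS in p42 cells 3 of 18 were higher and 5 lower, against 9.17% and 17.6%, Gclm among the higher with 2 and 4, and Ftl1, Hmox1, Blvrb, Osgin1 and Tkt were the lower ones. Gclm, the modifier subunit of the enzyme that starts glutathione synthesis, was the only one of the targets called higher with LPS in both lines. As deposited, Gclm had 6 and 4 loops in p42 cells, and the other higher targets, Txn1 with 5 and 2 and Pgd with 4 and 3, turned as well. With p42 over p30, 4 of 17 were higher and 2 lower in UT cells, against 17.4% and 12.6%, led by Taldo1 with 6 and 17 loops. In LPS cells 2 of 18 were higher and 4 lower, against 12.2% and 19.3%, led by Txnrd1 with 9 and 4. Hmox1, the best known target of BACH1, had 0, 1, 2 and 0 loops in the 4 lists as deposited. The median differences over the targets with a loop were 1 loop for p42 over p30 in UT cells and for LPS over UT in p30 cells, and -0.5 for the other pairs, against 0 over all genes each time. The start-site coverage was called higher with LPS in p30 cells for Gclm, with 2.21 and 3.46, and Taldo1, with 2.14 and 3.43, of 12 targets, against 1.87% of all genes, and for 0 of 15 in p42 cells, against 0.647%. With p42 over p30 it was called higher for 2 of 12 in UT cells, against 3.7%, and for 1 of 14 in LPS cells, against 1.58%, and for none of the targets was it called lower in the 4 comparisons.

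Of 14 known targets of NFE2, 4 had promoter loops in all 4 lists and 5 in none, the globin genes Hba-a1, Hba-a2, Hbb-bs and Hbb-bt and the haem synthesis gene Alas2. With p42 in UT cells 2 of 6 with a loop were higher and 2 lower, against 17.4% and 12.6% of all genes, among them Tbxas1 with 3 and 9 and Itga2b with 3 and 0. In LPS cells 2 of 8 were higher and 2 lower, against 12.2% and 19.3%, with Tbxas1 at 2 and 7 and Pf4 at 0 and 5 among the higher. With LPS in p30 cells 3 of 8 were higher and 3 lower, against 15.2% and 12.4%, with Tubb1 at 0 and 3 among the higher and Pf4 at 4 and 0 among the lower. With LPS in p42 cells 1 of 6 was higher, Rab27b with 0 and 2, and 1 lower, Gp9 with 3 and 1, against 9.17% and 17.6%.

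The genes on other chromosomes whose numbers of promoter loops in the 4 lists of equal length were most like those of Nfe2, by the sum of absolute differences, were Ptafr with a sum of 3, Arrdc2 with 5 and Bach1 with 6. For Bach1 they were Fance with 0, Ptafr with 3 and Ptger2 with 4. For Mafg they were Syvn1, Ddb1 and Pik3c2b, each with 2. In all, 11 genes lay within 6 of Nfe2, 6 within 4 of Bach1 and 4 within 2 of Mafg, and ties were broken by the lists as deposited, so the last genes named are not particular. These sums rest on 4 numbers per gene.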

How the data were processed

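H3K27ac HiChIP was performed in 8 libraries, 2 for each of 4 groups. Per the methods, the authors prepared them with an MNase-based kit, mapped reads to mm39 (GRCm39) with BWA-MEM 0.7.17, removed duplicates with pairtools and called loops of 5 kb bins with FitHiChIP at a q-value under 0.01. Each deposited list holds 1 row per loop of the pooled libraries of a group. The columns used were the deposited contact count and expected count, the coverage signal and peak flag of each bin, its coverage ratio to the mean of its bin class, the distance, the contact probability as a fraction and the q-value. The number of contacts modelled by the caller was taken as the expected count divided by the probability. Column meanings follow the usual output of the caller, since the lists carry no header.

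Start sites were the canonical transcripts of GENCODE M39. Lists of equal length kept the 78591 loops with the smallest q-values. Relative coverage is the deposited ratio, and only peak bins were compared. Promoter loops were called at 1.5 times and at least 2 more loops, and coverage at 1.5 times. The rule for partner bins was added after the data were seen. Shares of contacts have exact (Clopper-Pearson) 95% intervals, which cover counting error only. For unlisted pairs of peak bins, the expected count was computed from the caller's own relation of expected counts to bin ratios at that distance, and the contacts needed followed from the largest listed binomial probability. Of 3096, 3052, 3043 and 3023 listed pairs tried in the 4 lists, every one was at or above the number so obtained. The code was tested on simulated lists. Genes named are the 8 members, list genes called by the rule above (at most 5 per list and comparison, some of which are not reported here) and, for the 3 members with the most loops, the genes with the nearest loop numbers. Partner bins described in full were chosen after their values were seen. The members and the gene lists were chosen with earlier results of these data known. Python 3.11.15, pandas 2.3.3, numpy 2.4.6 and scipy 1.17.1 were used.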

Additional observations from a re-analysis of the deposited data

Results flagged for a closer look

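For 3 genes the number of promoter loops in lists of equal length moved in opposite directions with LPS in the 2 lines. The difference was not tested, since each group is 1 pooled list. Mafg gained 3 loops with LPS in p30 cells and had a change of -2 in p42 cells, a difference of -5. Nfe2 had a change of -1 in p30 cells and gained 4 in p42 cells, a difference of 5, but as deposited it had 16 and 16 loops in p30 and 21 and 20 in p42 cells, with no opposite movement. Nfe2l2 gained 5 in p30 cells and had a change of -1 in p42 cells, a difference of -6.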

How the results depend on the processing

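The summed promoter loops of the 6 genes differed by 0.06 on the log2 scale for p42 over p30 in UT cells in lists of equal length, and by 0.59 in the lists as deposited. At a q-value under 0.001 the difference was 0.54, and in lists shortened to 50% of the equal length it was 0.29. LPS over UT in p42 cells gave 0.04 in lists of equal length and turned to -0.51 in the lists as deposited, -0.49 at a q-value under 0.001 and -0.11 in lists shortened to 50% of that length. The calls of Maff in UT cells and with LPS in p42 cells turned as well in the lists as deposited. The contacts of shared loops exceeded the expected share by 0.41 on the log2 scale for p42 over p30 in UT cells and by 0.24 for LPS over UT in p30 cells. Against the share of modelled contacts they did so by 0.64 and 0.45. Coverage per modelled contact, in place of relative coverage, called 1 member in each of the 4 comparisons, where relative coverage called 0: Nfe2 1.62-fold higher with p42 in UT cells, Maff 0.591-fold with p42 in LPS cells, Maff 1.62-fold with LPS in p30 cells and Nfe2 0.656-fold with LPS in p42 cells. The other 55 alternative values of summed results and 72 of single genes were counted as close to the main value (within 1.5 times for counts). The 0.54 above was among them, although it lay nearly as far from the main value as the 0.59. Another 8 values of single genes moved, all against modelled contacts, and some small differences changed sign. The cause was not tested. Leaving out Nfe2 or Mafk, added after seeing the data, moved no sum by over 1.5 times, but turned LPS over UT in p42 cells to -0.06 without Nfe2 and p42 over p30 in LPS cells to 0.02 without Mafk. No paired analysis was possible because the replicates of a group were pooled into 1 list before deposit, and for the same reason no replicate could be left out. Depth limits single loops, since many had 10 to 20 contacts and entered a list by a few.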
